A study of Mus musculus with 26 samples.

Results

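The 10 samples described here are the 5 untreated clones of induced pluripotent stem cells (iPSC) and the 5 samples of the tail-tip fibroblasts from which such clones were derived, of 26 mouse samples in all. They were taken by their labels, and every one of the 315 assay positions of the panel was used. The iPSC samples are 5 different clones, kept on mitomycin-inactivated mouse embryonic fibroblast feeders in a serum-replacement medium with 1000 U/ml of leukaemia inhibitory factor. The fibroblast samples are numbered 1 to 5, and how they were cultured, and whether they came from separate animals or cultures, is not given in the sources used here, nor are strain, age and reprogramming factors. On the fibroblast side the p-values below may thus reflect technical spread alone. Of the other samples, activin-treated iPSC, islets and hepatocytes helped to estimate the spread of each assay in the fit. Activin-treated iPSC and embryonic stem cells (ESC) of the lines D3 and R1 are described where named. The activin treatment lasted 5 days, and whether the treated cells stayed pluripotent was not tested.

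MicroRNAs are short RNAs that guide silencing complexes to partly complementary messenger RNAs. Pluripotent mouse cells are known for a few miRNA clusters, transcribed as common precursors, that promote their rapid cell cycle and help somatic cells to reprogram. Differentiated cells such as fibroblasts carry other families, among them let-7, which oppose that state. In stem-loop RT-qPCR the amount of a mature miRNA is read as the threshold cycle (Ct), and each further cycle stands for about a doubling of the dilution, so that a low Ct means much RNA. The rows of the table carry positions such as B74 and no miRNA names, so positions are used as names throughout, and no sequence is shown.

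Between 242 and 275 positions had a Ct below 35 in an iPSC clone and between 187 and 272 in a fibroblast sample. The means were 257.4 ± 11.76 and 237.8 ± 31.26 (SD, n = 5 each), a difference within the spread in a two-sided exact permutation test (p = 0.214, the smallest possible being 0.00794). Fibroblast replicate 5 was the low sample, with 92 positions lacking a Ct, and fibroblast replicate 3 the high one. Without replicate 3 the difference was 28.15 positions with an exact p of 0.0238. In all 10 samples 152 positions had a Ct below 35, and in none of the 10 did 14. Over those 152 assays the Ct profiles of any 2 clones correlated with r between 0.76 and 0.89, those of any 2 fibroblast samples between 0.69 and 0.92, and those of a clone and a fibroblast sample between 0.27 and 0.53. These are correlations across assays within pairs of samples, given as a description, and assays are not independent replicates. The labels' cell types could not be set against marker miRNAs, since positions carry no names.

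Every fold change depends on the reference that corrects for the RNA amount. The authors used the small nuclear RNA RNU6, whose Ct was recovered from their fold changes. In position set A and B it lay between -1.45 and -0.31 cycles in the 5 clones, measured from the mean of the 10 samples, and between -2.38 and 3.37 in the fibroblasts. The fibroblasts were thus spread over 5.75 cycles and the clones over 1.14. Taken over the miRNAs detected in every sample of the series, the mean Ct was between 26.81 and 28.16 in the clones and between 23.18 and 29.86 in the fibroblasts. The 2 references moved in opposite directions between the groups, RNU6 by -1.80 cycles (exact permutation p = 0.167) and the mean miRNA Ct by 1.18 cycles (exact permutation p = 0.365), neither beyond the spread. The first difference was -2.62 with an exact p of 0.0317 without fibroblast replicate 3, and the second 2.07 with an exact p of 0.00794 without fibroblast replicate 5. In set C the differences were -1.59 and 0.96 cycles (exact permutation p = 0.198 and 0.429), the former -2.53 with an exact p of 0.0159 without fibroblast replicate 3. In set D, at 0.31 and 0.53 cycles (exact permutation p = 0.841 and 0.762), no direction held when single samples were left out. Counts of calls and ranges of fold changes are therefore given under both references below. Single assays are given relative to RNU6 unless the mean Ct is named.

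**Figure D1:**
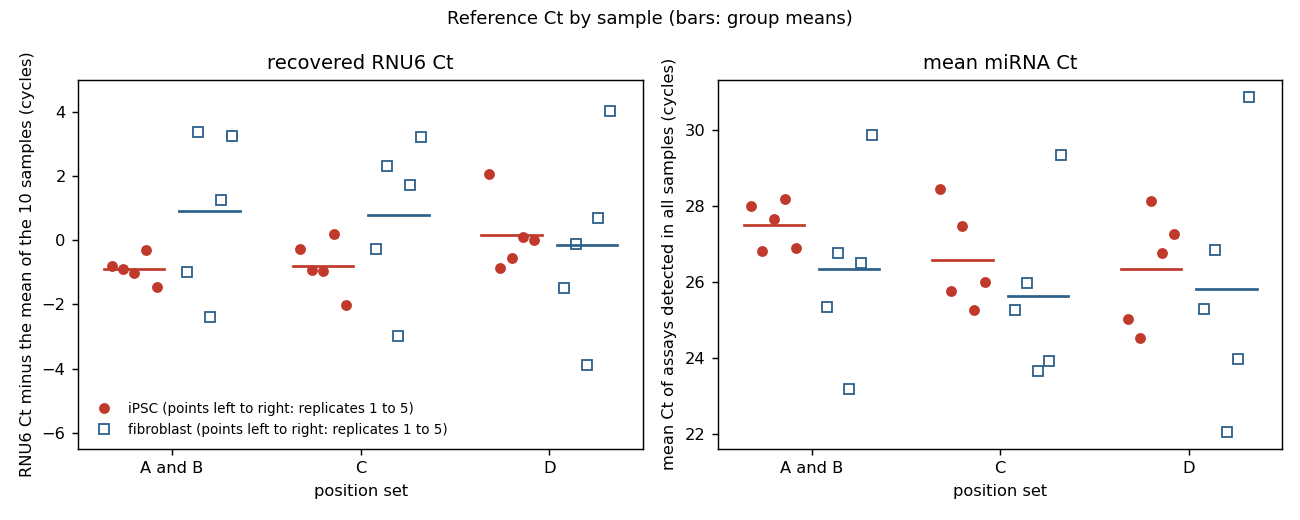
Recovered RNU6 Ct (left, cycles from the mean of the 10 samples) and mean miRNA Ct (right, cycles) by position set, 1 point per sample, with bars at the group means. The 5 fibroblast samples span 5.75 cycles of RNU6 in set A and B, and the 5 iPSC clones 1.14.

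The comparison of the clones with their parent cells asked which miRNAs change on reprogramming. A small group of assays was far higher in iPSC, led by the neighbouring positions B71 to B77 and by C64. A larger group was lower, led by B13, B14, A49 and A33, where the place of B13 depends on a clone without a Ct. Relative to RNU6, limma called 116 of 271 tested assays (42.8%), of which 20 were higher in iPSC (7.38% of those tested) and 96 lower (35.4%). Relative to the mean Ct it called 146 (53.9%), 91 of them higher (33.6%) and 55 lower (20.3%). With quantile normalization 61 were higher (22.5%) and 70 lower (25.8%), so that the balance of rises and falls changed with the reference. The median log2 fold change of all tested assays was -1.85 relative to RNU6, 0.67 relative to the mean Ct and -0.01 with quantile normalization. Under both references the same 20 were called higher (7.38%) and the same 55 lower (20.3%), with 0 called in opposite directions. A reference only shifts all values of a position set together, so the 2 sets of calls are not independent. Leaving out fibroblast replicate 3 reduced the rises relative to RNU6 to 13, and so did leaving out replicate 5.

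**Figure D2:**
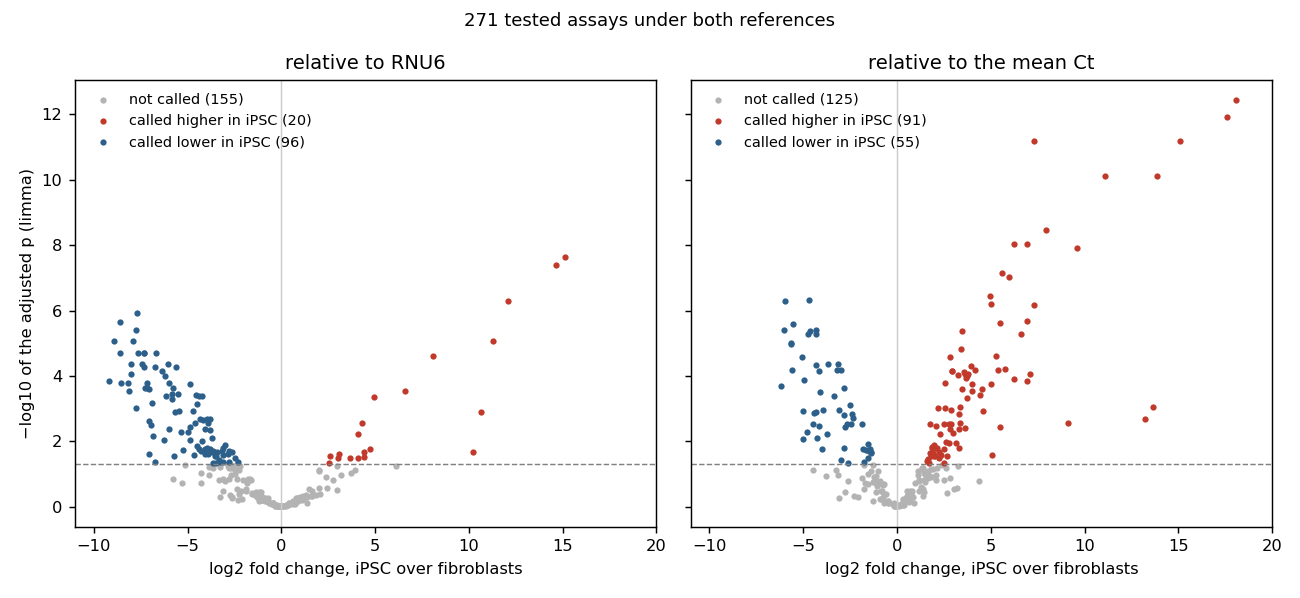
Log2 fold change of iPSC over fibroblasts (x axis) against −log10 of limma's adjusted p (y axis) for the 271 tested assays, relative to RNU6 (left) and to the mean Ct (right). Red points are called higher in iPSC (20 and 91), blue points lower (96 and 55), and the dashed line is the threshold of 0.05. The cloud moves to the right from the left panel to the right one.

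Some contrasts were visible in the raw Ct, before any reference. In 21 of the 271 assays (7.75%) every clone had a lower Ct than every fibroblast sample, and in 22 (8.12%) every clone had a higher one, a Ct beyond 35 counting as 35. Of the 20 assays called higher under both references 17 were separated in this way, and of the 55 called lower 20 were. Fibroblast replicate 5, with its late Ct values throughout, closed most of the remaining gaps. Without it 51 of the 55 were separated, and 17 of the 20, and over all 271 assays the clones were later than every remaining fibroblast sample in 76. Relative to RNU6 the groups did not overlap in 14 assays with iPSC higher (5.17%) and in 84 with iPSC lower (31%). Relative to the mean Ct these were 60 (22.1%) and 47 (17.3%).

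**Figure D3:**
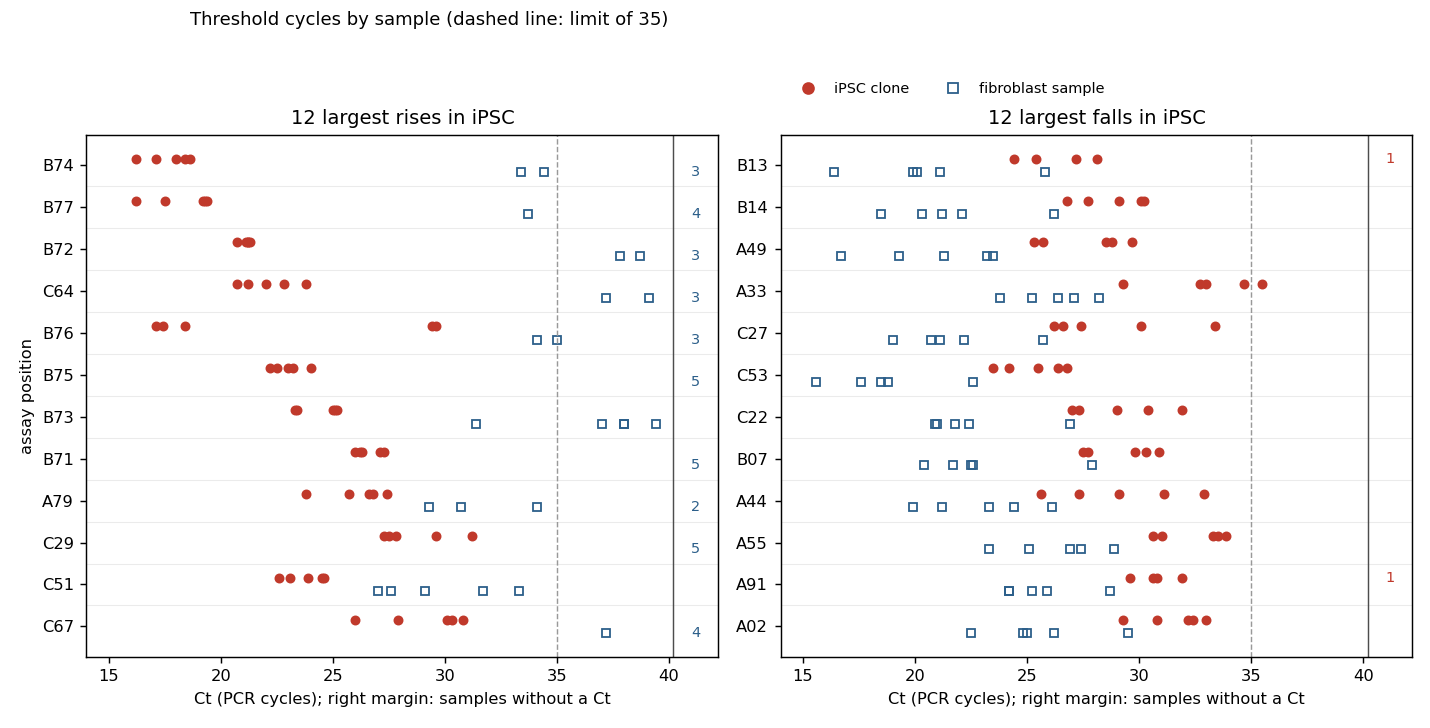
Ct in PCR cycles (x axis) of the 12 assays with the largest rises (left) and the 12 with the largest falls (right), 1 filled circle per iPSC clone and 1 open square per fibroblast sample; numbers in the right margin count samples without a Ct. For B74 the clones lie between 16.2 and 18.6 and the fibroblast samples at 33.4 and 34.4 or without a Ct. For B14 the clones lie between 26.8 and 30.2 and the fibroblasts between 18.5 and 26.2.

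The 12 largest rises had log2 fold changes from 4.38 to 15.10 with RNU6 as reference and from 6.93 to 18.08 with the mean Ct. All 7 positions from B71 to B77 were among the 20 assays called higher, and they made up 7 of the 9 such assays lettered B. Whether neighbouring positions hold related miRNAs is not given in the sources used here, and the run was picked out after its values were seen.

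B74 had a Ct of 18, 17.1, 16.2, 18.6 and 18.4 in clones 1 to 5. In the fibroblasts it reached 33.4 in replicate 1 and 34.4 in replicate 3 and gave no Ct in the others. The groups lay about 15 cycles apart and did not overlap (log2 fold change 15.10 relative to RNU6, SE 1.14, limma adjusted p 2.24e-08). B77 stood at 19.3, 16.2, 17.5, 19.2 and 19.4 in the clones and had a Ct, 33.7, only in fibroblast replicate 3. Relative to RNU6 it was higher by 14.62 on the log2 scale (SE 1.19, limma adjusted p 4.01e-08).

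B72 was the most even of the run, with a Ct of 21.2, 20.7, 21.1, 21.2 and 21.3 in the clones. Fibroblast replicates 1 and 3 gave a Ct of 38.7 and 37.8, beyond the limit, and the other fibroblast samples none. Among the clones its SD was 0.256 cycles, against 1.02 cycles for the median of the 152 assays detected throughout. The log2 fold change was 12.11 relative to RNU6 (SE 1.19, limma adjusted p 5.02e-07). Every fibroblast sample entered it at the limit of 35, so its size depends on that limit. On the fibroblast side its SE and adjusted p thus reflect the spread of the RNU6 Ct and not that of the miRNA. It was tested only because the clones had it below 35, so its call partly restates that detection. All this holds for B75, B71, C64, C29 and C67 below too. The sizes for B74, B77, B73, B76 and A79 depend on the limit in part, since some of their fibroblast samples entered at it. With the limit at 32, B74 was at 12.54, B77 at 11.88 and B73 at 5.68 relative to RNU6, all still called. With the limit at 40, B77 was at 18.62.

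B75 had a Ct of 22.2, 22.5, 24, 23.2 and 23 in the clones and none in any fibroblast sample. B71 behaved alike at a later level, with 26, 26.2, 26.3, 27.3 and 27.1 in the clones and no Ct in the 5 fibroblast samples. Detection of both thus separated the groups completely. The log2 fold changes relative to RNU6 were 10.22 for B75 (SE 3.38, limma adjusted p 0.0215) and 6.60 for B71 (SE 1.22, limma adjusted p 0.000281). The call of B75 was lost with the limit at 32 (7.22, limma adjusted p 0.0622). Its SD among the clones was 0.724 cycles. Hepatocyte replicate 3, which enters the shared estimate of spread, had a Ct of 7.98, and in a fit on the 10 samples alone the SE of B75 was 1.14 (limma adjusted p 7.72e-06).

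B73 was the member of the run with a Ct in every fibroblast sample. The clones gave 23.4, 23.3, 25.1, 25.2 and 25. The fibroblasts gave 38, 37, 31.4, 38 and 39.4, so that replicate 3 alone was below 35. Every clone was lower in Ct by more than 6 cycles than the lowest fibroblast sample, and the log2 fold change was 8.08 relative to RNU6 (SE 1.15, limma adjusted p 2.51e-05).

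B76 divided the clones. Clones 1, 2 and 3 had a Ct of 18.4, 17.4 and 17.1, whereas clones 4 and 5 had 29.6 and 29.4, a gap of 11.06 cycles. Over the 214 assays that every clone had below 35 the median of the largest such gap was 1.21 cycles, and B76 had the widest. In the fibroblasts B76 had a Ct of 34.1 in replicate 2, one just above 35 in replicate 1 and none in the others. The fit gave a log2 fold change of 10.64 relative to RNU6 (SE 2.33, limma adjusted p 0.00124) for a mean that lies in the gap and that no clone showed. Relative to RNU6 the groups overlapped, with the lowest clone at a log2 level of -30.88 and the highest fibroblast sample at -30.74. When a late or empty Ct was left missing instead of set to 35, the log2 fold change was 7.46 and the call was lost (limma adjusted p 0.237).

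Activin-treated iPSC and ESC were divided at B76 as well. The activin-treated duplicates of clone 2 gave 20 and 19.2, while those of clone 3 gave 27.9 and 18.4. The ESC samples gave 17.9, 16 and 33.8 in line D3 and 20.3, 31.3 and 29 in line R1. Of the 15 samples of untreated clones, activin-treated iPSC and ESC, 9 had a Ct below 25 and 6 one above it. Duplicates of 1 treated clone and replicates of each ESC line fell on both sides. B77, on the next position, stayed between 16.2 and 21 in all of them.

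A69 had its widest gap between the same clones and was singled out after its values were seen. Its Ct was 26, 25.5 and 24.5 in clones 1, 2 and 3 and 32.2 and 34.3 in clones 4 and 5. It was 34.6 in the treated duplicate of clone 3 in which B76 was late and 24.5 in the other. In the ESC line R1 it was 27.2, 32.3 and 35.2, late in the same replicates as B76, while in line D3 it was 27.2, 27 and 26.1 and did not follow B76 in replicate 3. Fibroblast samples gave 30.5, 33.7, 28, 35.7 and 34.6, so that clones 4 and 5 were within the fibroblast range and clones 1 to 3 outside it (log2 fold change 2.07 relative to RNU6, limma adjusted p 0.421, and 5.05 relative to the mean Ct, limma adjusted p 0.0256). What the late samples share beyond this was not tested.

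**Figure D4:**
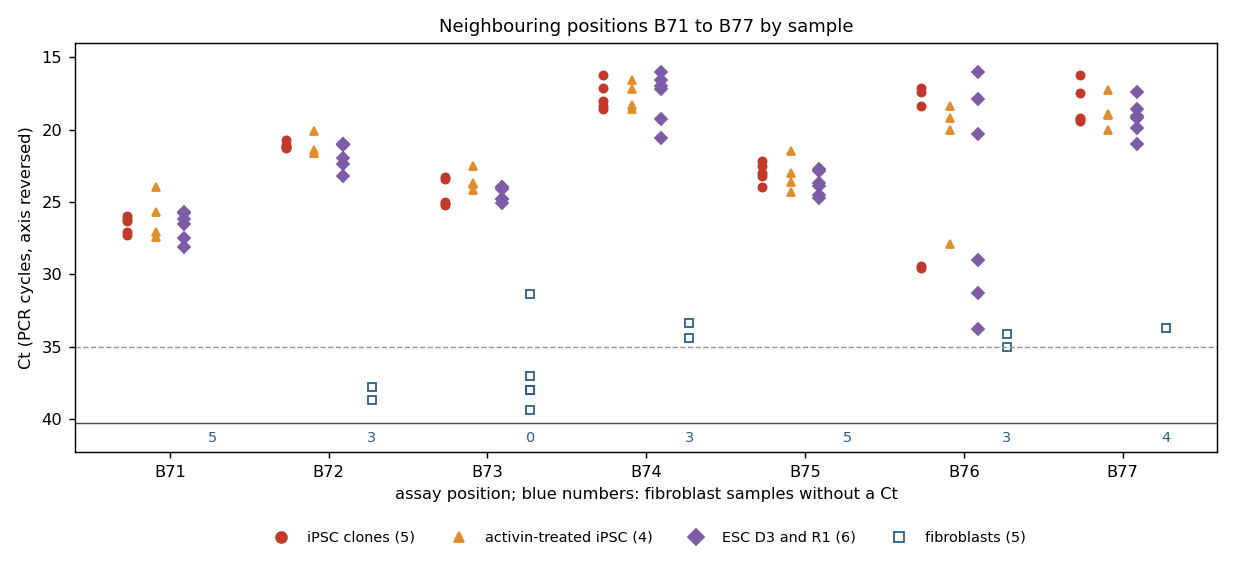
Ct in PCR cycles (y axis, reversed) at the neighbouring positions B71 to B77 in iPSC clones, activin-treated iPSC, ESC and fibroblasts, 1 symbol per sample; blue numbers count fibroblast samples without a Ct. B76 splits the clones, the activin-treated iPSC and the ESC, with clones at 17.1 to 18.4 and at 29.4 and 29.6. B72 lies between 20.7 and 21.3 in the clones.

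Outside the run the largest rise was at C64. The clones gave 23.8, 22, 22.8, 21.2 and 20.7, and the fibroblasts 39.1 and 37.2 in replicates 1 and 3 and no Ct otherwise. C64 was thus below 35 in every clone and in no fibroblast sample, with a log2 fold change of 11.31 relative to RNU6 (SE 1.44, limma adjusted p 8.64e-06). In the 6 ESC samples it ranged from 21.1 to 28 with a median of 22.8, which overlapped the clones.

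In all, 9 of 315 positions (2.86%) had a Ct below 35 in all 5 clones and in no fibroblast sample, and 0 showed the reverse. Beside B71, B72, B75 and C64 these were C29, C67, C61, C66 and C11, which appear late in the clones too. C29 had a Ct of 31.2, 27.5, 29.6, 27.8 and 27.3 in the clones and none in the fibroblasts (log2 fold change 4.73 relative to RNU6, SE 1.49, limma adjusted p 0.0176). C67 had 30.8, 30.1, 30.3, 27.9 and 26 in the clones and a single fibroblast Ct of 37.2 (4.38, SE 1.44, limma adjusted p 0.0208). Their calls rested on single samples and on the limit. C29 was at 3.79 without fibroblast replicate 3 (limma adjusted p 0.0502), and C67 at 3.44 without the same sample (0.0602), at 3.86 without iPSC replicate 4 (0.0562) and at 3.93 without iPSC replicate 5 (0.0554). With the limit at 32 they were at 1.73 and 1.38 and not called.

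C61, C66 and C11 reached mean Ct values of 30.7, 31 and 31.4 in the clones. Relative to RNU6 they were not called, at 2.75, 2.45 and 2.00 (limma adjusted p 0.151, 0.274 and 0.268). Relative to the mean Ct they were called, at 5.29, 5.00 and 4.54 (limma adjusted p 2.53e-05, 0.00018 and 0.000254). With the limit at 40 all 3 were called relative to RNU6 too, at 7.51, 7.45 and 5.53 (limma adjusted p 0.000897, 0.00251 and 0.00233). Since these assays were taken for their detection pattern, and every fibroblast sample stands at the limit, their calls partly restate that choice.

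A79 and C51 were higher in iPSC while detected in several or all fibroblast samples. A79 had a Ct of 26.8, 26.6, 25.7, 27.4 and 23.8 in the clones and of 30.7, 34.1 and 29.3 in fibroblast replicates 1 to 3, with none in replicates 4 and 5. The clones were higher by 4.95 on the log2 scale relative to RNU6 (SE 0.97, limma adjusted p 0.000429). C51 had 24.5, 23.9, 24.6, 22.6 and 23.1 in the clones and 31.7, 29.1, 27.6, 27 and 33.3 in the fibroblasts, with no overlap in Ct. Relative to RNU6 the groups overlapped, and the value of 4.39 (SE 1.55, limma adjusted p 0.0292) was not called without iPSC replicate 1 or 4 or without fibroblast replicate 1, 3 or 5, where it ranged from 3.63 to 4.46 with adjusted p between 0.0514 and 0.0767. Of the 20 assays called higher, 4 had a Ct below 35 in all fibroblast samples and 6 in none.

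The 12 largest falls formed a tighter group, with log2 fold changes between -9.18 and -7.76 with RNU6 as reference and between -6.19 and -4.77 with the mean Ct. Their levels in iPSC stood between 0.17% and 0.46% of the fibroblast level under the first reference and between 1.4% and 3.7% under the second. None of the 12 lost its call in any of the settings run. They were chosen as called under both references, and the settings share most of their samples, so this was partly built in.

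B14 had a Ct of 30.1, 26.8, 30.2, 29.1 and 27.7 in clones 1 to 5 and of 20.3, 21.2, 18.5, 22.1 and 26.2 in fibroblasts 1 to 5. Every clone was later than every fibroblast sample, the closest being clone 2 and fibroblast replicate 5. The log2 fold change was -8.95 relative to RNU6 (SE 1.14, limma adjusted p 8.64e-06). B13, on the position before it, had 27.2, 25.4, 28.1 and 24.4 in clones 1, 2, 3 and 5 and no Ct in clone 4. The fibroblasts gave 19.9, 20.1, 16.4, 21.1 and 25.8, so that replicate 5 overlapped with the clones in raw Ct. Its value of -9.18 (SE 1.56, limma adjusted p 0.000145) counts clone 4 at the limit, and its first place among the falls depends on that. In the authors' fold changes, which average measured Ct values alone and are positive for less RNA in iPSC, B13 stands at 7.58 and B14 at 8.95.

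A49 gave 28.8, 25.3, 29.7, 28.5 and 25.7 in the clones against 19.3, 23.2, 16.7, 21.3 and 23.5 in the fibroblasts. Relative to RNU6 its fibroblast samples agreed within an SD of 0.51 on the log2 scale, against 1.82 among the clones, and the fall was -8.62 (SE 0.96, limma adjusted p 2.24e-06). A33 was late in the clones, at 32.7, 29.3, 35.5, 33 and 34.7, and at 25.2, 27.1, 23.8, 26.4 and 28.2 in the fibroblasts. Clone 3 was beyond the limit there, and the groups did not overlap (-8.60, SE 1.18, limma adjusted p 2.00e-05).

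Of the positions lettered C, C27, C53 and C22 were among the 12. C53 had a Ct of 18.5, 18.8, 15.6, 17.6 and 22.6 in the fibroblasts and of 26.4, 23.5, 26.8, 25.5 and 24.2 in the clones (-8.20, SE 1.43, limma adjusted p 0.000169). C27 went from 20.7, 22.2, 19, 21.1 and 25.7 in the fibroblasts to 33.4, 26.2, 30.1, 27.4 and 26.6 in the clones (-8.57, SE 1.49, limma adjusted p 0.000169). C22 went from 22.4, 21.8, 21, 20.9 and 26.9 to 30.4, 27.3, 31.9, 29 and 27 (-8.11, limma adjusted p 0.000288). All 3 were separated in raw Ct, C22 by the narrowest margin, between fibroblast replicate 5 and clone 5.

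The remaining falls were B07, A44, A55, A91 and A02. B07 had a mean Ct of 29.2 ± 1.54 in the clones and 23 ± 2.90 in the fibroblasts (SD, n = 5 each), A55 one of 32.4 ± 1.55 and 26.3 ± 2.16, and A02 one of 31.5 ± 1.49 and 25.6 ± 2.58. Their log2 fold changes relative to RNU6 were -8.03, -7.92 and -7.76. A91 was at 30.6, 29.6, 30.8 and 31.9 in clones 1 to 4, without a Ct in clone 5. It lay between 24.2 and 28.7 in the fibroblasts (-7.77). That value counts clone 5 at the limit, and the place of A91 among the 12 depends on it. The authors' fold change, from measured Ct alone and positive for less RNA in iPSC, is 6.78. A44 varied among the clones, at 27.3, 25.6, 29.1, 32.9 and 31.1, and was the single one of the 12 whose groups overlapped relative to the mean Ct (-5.03, SE 1.52, limma adjusted p 0.00877). Its latest clones, 4 and 5, are those with the late Ct at B76 and A69.

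Most of the fallen assays remained measurable in iPSC, as did most tested assays. Of the 96 called lower relative to RNU6, 71 had a Ct below 35 in all 5 clones and 0 had none below it. Of the 55 called lower under both references, 40 were below 35 in all 5 clones. Among all 271 tested assays 214 were, a similar share, so this is no trait of the fallen ones. Only 3 tested assays had no clone below 35, so the count of 0 says little. Over these 55 the median log2 level relative to the fibroblast mean was -3.29, -3.01, -3.86, -3.74 and -3.12 in clones 1 to 5 with the mean Ct as reference, against 1.09, 0.66, 1.13, 0.70 and 0.42 for all tested assays. With RNU6 as reference the same medians ran from -7.12 in clone 3 to -5.22 in clone 2, against -2.52 to -1.19 for all tested assays. Since the 55 were taken by their calls in these same samples, medians below those of all tested assays restate that choice. The clones were closer to each other under the mean Ct than under RNU6. The mean Ct is taken from assays of the same panel in the same samples and removes their shared shift, so this closeness is partly built in. Because the iPSC were grown on feeder fibroblasts, RNA of feeder cells may be part of these levels, and its share was not tested. In such bulk samples a smaller share of cells with a miRNA and less of it in each cell cannot be told apart.

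Between these groups lay assays whose call depended on the reference. Higher only relative to the mean Ct were 71, with a median log2 fold change of 2.92 there and 0.31 relative to RNU6. Lower only relative to RNU6 were 41, with a median of -3.71 there and -0.81 relative to the mean Ct. Under neither reference 84 assays were called, with medians of -1.72 and 0.73. The median 95% interval of a log2 fold change reached 2.58 to either side under the RNU6 reference and 1.61 under the other, so a change of a few cycles could be missed in these 84.

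By letter of the position, the calls under both references were 3 higher and 26 lower of 91 tested in A, 9 and 16 of 83 in B, 6 and 12 of 78 in C, and 2 and 1 of 19 in D. The median log2 fold change relative to RNU6 was -2.84, -1.85, -1.11 and 0.51 in A to D, and 0.15, 1.13, 1.44 and 0.73 relative to the mean Ct. In D both references gave 2 rises and 1 fall. The 2 assays higher there were D21 and D22, at 3.08 and 3.03 (limma adjusted p 0.0245 and 0.0324), and the lower one was D24. C and D were each corrected with an RNU6 Ct of their own, so the set of assays and its reference cannot be told apart in such medians.

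Of the 152 assays with a Ct below 35 throughout, the 4 with the smallest fold changes under both references all lay in D. The ranking took the larger absolute fold change of both references, and these differed least in D. Their shifts there were 0.31 and 0.53 cycles, against -1.80 and 1.18 in A and B and -1.59 and 0.96 in C. The ranking thus favoured D, and the letter is no result about these assays. D16 had a log2 fold change of 0.15 (95% interval -2.51 to 2.80) relative to RNU6, D26 one of 0.51 (-1.93 to 2.96), D14 one of 0.94 (-1.35 to 3.22) and D28 one of 1.04 (-1.79 to 3.87). Their adjusted p-values by limma lay between 0.537 and 0.951. The intervals leave room for several-fold differences, so equal levels are not shown. D16 had a Ct of 21 to 24 in the clones, while in the fibroblasts replicate 3 was at 15.3 and the others between 22.1 and 27.3.

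The clones varied less among themselves than the fibroblast samples did. Over the 152 assays detected in all 10 samples the median SD was 1.06 on the log2 scale among clones and 1.70 among fibroblasts relative to RNU6, and the SD was larger among fibroblasts in 121 assays. Relative to the mean Ct the medians were 0.75 and 0.99, with 101 assays larger among fibroblasts. In raw Ct they were 1.02 and 2.58 cycles, with 139. These are descriptions over assays that share their samples, with no test. Among these 152 assays the 4 most variable in the clones were C01, D24, A25 and D28, with SDs of 4.16, 3.66, 3.44 and 2.93 relative to RNU6. In C01 and in D24 clone 5 was late, at 30.9 against 22.3 to 25.7 and at 34.5 against 26.4 to 28.5, and in A25 clone 1, at 33.4 against 24.4 to 26.5. In the fibroblasts D08, C58, B23 and B33 varied most among the 152, with SDs of 10.64, 3.66, 3.11 and 3.09.

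**Figure D5:**
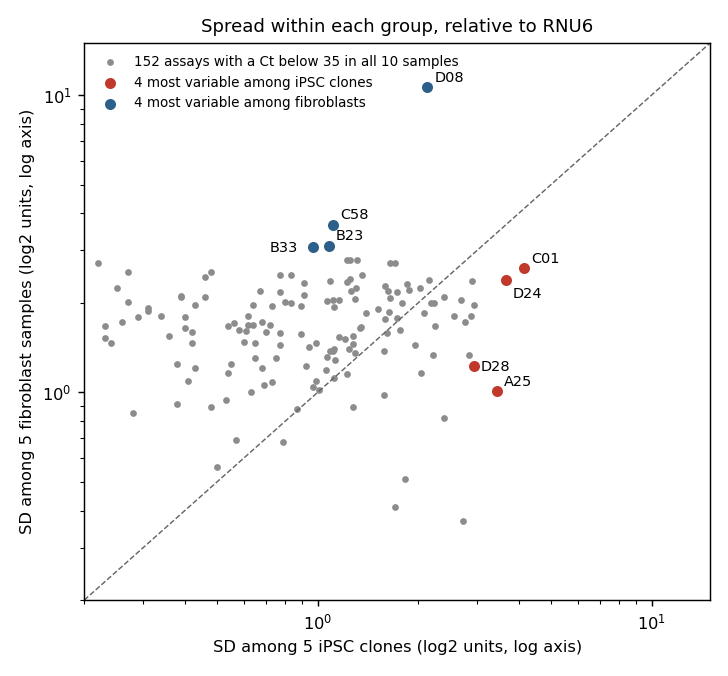
SD among the 5 iPSC clones (x axis) against SD among the 5 fibroblast samples (y axis), in log2 units relative to RNU6 and on log axes, for the 152 assays detected below 35 throughout these samples. The dashed line marks equal SDs, and 121 points lie above it. D08 stands at an SD of 10.64 among fibroblasts, and C01 at 4.16 among clones.

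C58 was among the assays most variable in the fibroblasts. The clones gave 27.2, 26.1, 26, 24.9 and 24, and the fibroblasts 34, 33.3, 27, 26 and 31.7. Fibroblast replicates 3 and 4 were close to the clones and the others later by 4 cycles or more. The log2 fold change was 3.19 relative to RNU6 (SE 1.55, limma adjusted p 0.106), 4.52 without fibroblast replicate 4 (limma adjusted p 0.0188), 4.77 with quantile normalization (limma adjusted p 0.00177) and 5.74 relative to the mean Ct (limma adjusted p 5.99e-05).

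Single values outside the usual range of qPCR were present. A Ct below 15 occurred 4 times in these samples. Clone 2 had 11.1 at B28, 14.7 at B54 and 3.43 at D12, and fibroblast replicate 4 had 2.74 at D08. At B28 and D12 no other clone had a Ct below 35, and at D08 the other fibroblast samples lay between 22.3 and 30.5. Of the 4 assays D08 alone is among those named by rule, and its log2 fold change of -2.31 (limma adjusted p 0.614) rests on that value. With all values below 15 left missing in the 20 samples of the fit, 21 assays were called higher and 106 lower. Those samples include activin-treated iPSC, islets and hepatocytes, and B28 and D12 were not among the tested assays. The change in calls thus cannot be assigned to the 4 values above. Empty values were not always at the low end either. In 25 cases a sample lacked a Ct although the 4 others of its group had one with a median below 30, of which 10 were in fibroblast replicate 5 and 10 in iPSC, among them clone 4 at B13.

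In the authors' deposited table, in which a positive value means less RNA in iPSC, B14 stands at 8.95, A49 at 8.62 and A33 at 8.69, while B72 stands at -17.94, C64 at -16.87 and B73 at -10.56. The differences from the values above for B72, C64 and B73 arise because the table averages every Ct that was measured, also beyond 35, over the samples that have one. It gives no value for B71, B75, C29 and C66, which had no Ct in any fibroblast sample.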

How the data were processed

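Stem-loop RT-qPCR measured 303 miRNAs per the labels' protocols, from 5 ng of total RNA per reverse transcription and over 40 PCR cycles. The deposited table holds the authors' raw threshold cycles. How thresholds were set is not stated in the labels. The authors' deposited fold changes are log2 values. Those for iPSC and fibroblasts equal the mean RNU6-normalised Ct of iPSC minus that of fibroblasts to within 3.0e-09 cycles. Above 0 the RNA was thus lower in iPSC, while the header describes a fold of the opposite sign.

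From these values and the Ct table, the RNU6 Ct of 20 samples was recovered by least squares, up to a constant, separately for the positions lettered A or B, C, and D. The largest residual was 4.0e-09 cycles. The recovery and the model were tested on simulated data. Each assay Ct was subtracted from the reference Ct to give a log2 level, after a Ct above 35 or an empty value had been set to 35. Tests covered assays below 35 in at least 50% of the samples of a group. A mean per group was fitted with limma 3.58.1 in R 4.3.3 over the 20 samples whose RNU6 could be recovered, duplicates of a treated clone averaged first (18 columns), with Benjamini-Hochberg adjustment and a threshold of 0.05. The alternative reference was the mean Ct of the assays below 35 in all 26 samples (87 in A and B, 26 in C, 9 in D).

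Named assays were the 12 largest rises and the 12 largest falls among those called alike under both references and with a Ct below 35 in every sample of the higher group, every assay detected in all samples of 1 group and none of the other, and, among assays below 35 in all 10 samples, the 4 steadiest under both references and the 4 most variable in each group relative to RNU6. The members, lists and rules were chosen with earlier results of these data known. Marker lists of miRNA names were fixed but not tested, since the rows carry positions only. Alternatives were quantile normalization, limits of 32 and 40, late values left missing, other filters, a fit on the 10 samples alone, a replicate block and each sample left out in turn. Python 3.11.15 with numpy 2.4.6, pandas 2.3.3, scipy 1.17.1 and matplotlib 3.10.9 did the rest.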

Additional observations from a re-analysis of the deposited data

Results flagged for a closer look

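Of 73 groups of 5 values examined, 5 held a sample far from the other 4. The measure was the gap to its neighbour as a share of the whole range. Its critical value was 0.71, which chance passes in about 1 group in 20 if groups are not picked by their values. The groups were named assays below 35 in every sample of a group, the detected positions and the references. A25 among clones and D08 among fibroblasts were named for their spread in these same values, so their flags partly restate that choice. C51 in iPSC clone 4 was high, at a Ct of 22.6 where the other clones had 23.1 to 24.6, with a share of 0.758 relative to RNU6. A25 in clone 1 was low, at 33.4 against 24.4 to 26.5 (0.804). In fibroblast replicate 3, D16 and D24 both stood at 15.3, against 22.1 to 27.3 and 23.5 to 28.4 in the others (0.890 and 0.793). D08 in fibroblast replicate 4 stood at 2.74 against 22.3 to 30.5 (0.934). The fall of D24 was not called without fibroblast replicate 3 (-4.20, limma adjusted p 0.0517) or without iPSC replicate 5 (-3.78, limma adjusted p 0.0554).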

How the results depend on the processing

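The 12 largest falls kept direction and call in all 285 combinations of assay and setting run, and the 12 largest rises in 258 of 271, the other 13 keeping direction without the call. Both lists were chosen as called under both references, so a kept call partly restates that choice. The number called higher in iPSC, 20 relative to RNU6, was 91 with the mean Ct (80 without fibroblast replicate 3, 106 without fibroblast replicate 5, 91 in a fit on the 10 samples alone), 61 with quantile normalization, 12 at a limit of 32, 9 when late or empty values were left missing and 5 when a Ct below 35 was required in all 10 samples, which left 152 assays. It lay between 13 and 20 with single samples left out. The number called lower, 96, was 55 with the mean Ct (54, 57 and 60 in the same variants) and between 72 and 100 with single samples left out. In raw Ct 22 assays were later in every clone, and 76 without fibroblast replicate 5. B23 turned from -0.75, not called, to 2.23 with the mean Ct (limma adjusted p 0.0322). Over the single samples left out, the difference in detected positions ranged from 6.90 to 28.15, RNU6 from -2.62 to -1.19 cycles in set A and B, from -2.53 to -0.99 in C and from -0.62 to 1.36 in D, and the mean miRNA Ct from 0.40 to 2.07, from 0.46 to 1.88 and from -0.41 to 1.80. In set D RNU6 changed sign without iPSC replicate 1 (-0.16), fibroblast replicate 1 (-0.02) and fibroblast replicate 3 (-0.62), and the mean miRNA Ct without the last (-0.41). Apart from fewer assays or samples where stated, the cause was not tested. Deviations of same-numbered samples correlated between -0.103 and 0.353, over 0.1 for 3 of 5 numbers, and replicates 4 and 5 correlated best with their own number. Since the labels name no shared source and not every correlation passed 0.1, the samples were taken to share only a number. With the replicate block 28 were called higher and 123 lower, among them C61, C66 and C58 as higher (limma adjusted p 0.0295, 0.0374 and 0.0201), which were not called without it. An added limit of 36 gave 20 and 95. Precision is limited by 5 samples a group and by the spread of the fibroblasts' Ct values, whose cause was not tested.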

Other observations

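A44, one of the 12 largest falls, had its latest values among the clones in those with a late Ct at B76. Its values in activin-treated iPSC and ESC are given here, with no test. In activin-treated iPSC it was 27.1 and 26.6 in the duplicates of clone 2, and 30.8 and 26.7 in those of clone 3, the first of which was the late one at B76 and A69. In the ESC line D3 it was 26.1 and 28.2 in replicates 1 and 2, and replicate 3, late at B76, gave no Ct. In line R1 it was 29.6 in replicate 1, and 38.7 and 34.8 in replicates 2 and 3, which were late at B76 and A69 too. The assay was singled out after its values were seen, and what the late samples share was not tested.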
